A study of Mus musculus with 6 samples.

Results

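The genes described here are those that set how a cell responds to glucocorticoids: the receptors *Nr3c1* (glucocorticoid receptor, GR) and *Nr3c2* (mineralocorticoid receptor), the activating enzyme *Hsd11b1*, and the receptor chaperones *Fkbp4*, *Fkbp5*, *Hsp90aa1*, *Hsp90ab1* and *Ptges3*. Chromatin accessibility around these 8 genes, of 21951 protein-coding genes in the annotation, was profiled by ATAC-seq (the transposase Tn5 cuts open DNA) in astrocyte nuclei of the primary visual cortex (V1) at postnatal day 21. All mice were GR fl/fl and had been injected at postnatal day 0 to 1 with an adeno-associated virus. The vector, AAV2/5, carried the astrocyte promoter GfaABC1D, an EGFP-KASH tag for the nuclear membrane and the 4x6T sequence. It encoded the inactive ΔCre in GR-con mice and active Cre in GR-KO mice, so that deletion was directed to astrocytes alone. There were 3 libraries per condition, each from the tissue of 3 to 4 pooled mice and 50000 sorted DRAQ5+/GFP+ events. A peak was assigned to a gene when its summit lay in the gene body or within 50 kb of it (GENCODE, mm10). This gave 1326 of the 1116429 peaks in the 6 lists, and 174 of 160877 sites, where a site is a window of 401 bp that held a summit in at least 2 libraries.

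Glucocorticoids cross the cell membrane and bind GR, which waits in the cytoplasm in a complex with an HSP90 dimer, the co-chaperone p23 and an immunophilin. Hormone binding lets the complex exchange FKBP51 (encoded by *Fkbp5*) for FKBP52 (encoded by *Fkbp4*), which links it to dynein for transport into the nucleus. There GR binds short palindromic elements and opens or maintains the chromatin around them. *Fkbp5* is a classic GR target, and since FKBP51 lowers the hormone affinity of GR, its induction closes a short negative feedback loop. Astrocytes express GR, and the reductase encoded by *Hsd11b1* regenerates active corticosterone from its inert keto form inside cells.

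Each deposited peak has a fold, the ratio of the reads at its summit to the local background of that library, and a −log10 p. Values are listed below for replicates 1, 2 and 3 in order. A library without a summit at a site had no peak past the calling threshold there, which does not mean that it had no reads. The fold and p of each peak together fixed a whole number of reads at the summit (within 0.01 for 100% of peaks), which is printed as reads. The lowest background of each library, a measure of its depth, was 4.28 to 4.92 reads, a 1.15-fold range, and ratios of reads were scaled by it. Within each library, the fold and the −log10 p were ranked and converted to normal scores, which have a standard deviation of 1 over a list, and compared by limma over all 160877 sites, with a call at a Benjamini-Hochberg adjusted p under 0.05.

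By rank of fold, 4 of the 174 sites fell in GR-KO and 1 rose, beside 0.127% of all sites called lower and 0.0609% called higher. By rank of −log10 p, 10 fell (5.75%) and 1 rose, beside 0.835% called lower and 0.76% called higher over all sites. The 11 sites called by either measure were 8 at *Fkbp5*, 2 at *Nr3c1* and 1 at *Hsd11b1*. Not all of them had a summit in every library. Those without were *Nr3c1* +58400, *Hsd11b1* +40968 and *Fkbp5* +97694, +97225, +53334 and +4656 (bp from the 5′ end). Libraries without a summit took the tied lowest score there, so these calls rest partly on that value and on the filter. No site of *Nr3c2*, *Fkbp4*, *Hsp90aa1*, *Hsp90ab1* or *Ptges3* was called by either measure in limma. At an unadjusted p under 0.05 by rank of −log10 p, these 5 genes had 6, 2, 1, 2 and 1 sites, 12 of 103 (11.7%), beside 13.4% of all sites. On scaled reads, over the sites with a summit in all 6 libraries, *Nr3c2* had 1 call lower and 2 higher of 21, beside 3.94% lower and 1.97% higher over all such sites, and the other 4 genes had 0. With *Fkbp5* left out, 2 of the other 148 sites (1.35%) fell by rank of −log10 p. The median difference over the 174 sites was 0.02 by rank of fold and -0.01 by rank of −log10 p, beside 0.02 and 0.01 over all sites. At the 26 *Fkbp5* sites the medians were -0.37 and -0.41.

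**Figure D1:**
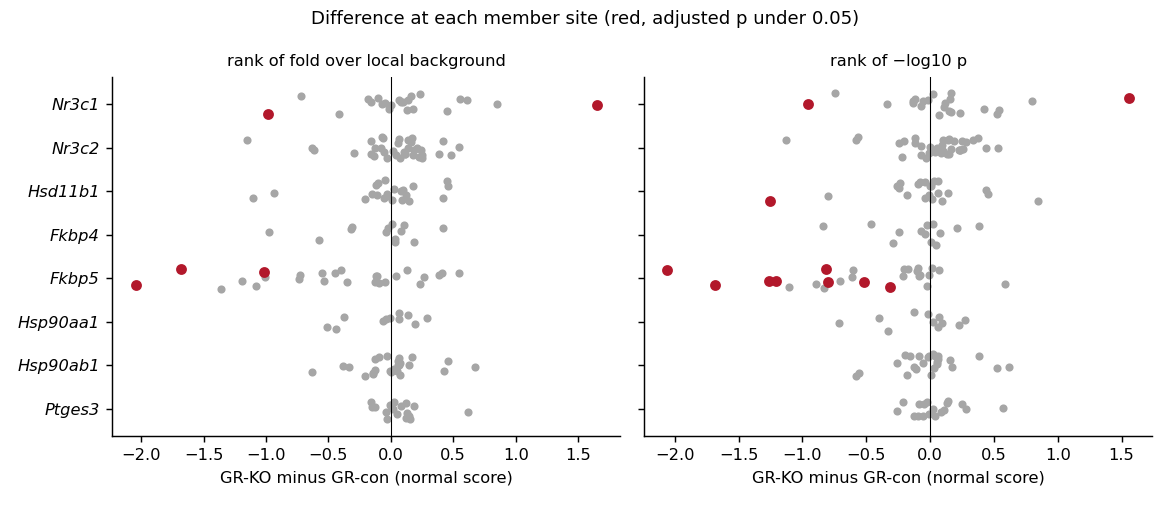
Difference between GR-KO and GR-con in the normal score of each of the 174 sites (points), by gene, for the rank of fold (left) and the rank of −log10 p (right); points are spread vertically for legibility and red marks an adjusted p under 0.05. The *Fkbp5* points lie mostly left of 0, with 8 red by rank of −log10 p, and the other genes centre on 0 with 3 red sites among them.

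Peaks were then compared by presence. A summit in all 3 GR-con and no GR-KO library was found at 6 of the 174 sites, 4 of them at *Fkbp5* and 1 each at *Nr3c2* and *Hsd11b1*, beside 1.15% of all sites. The reverse was found at 1 site, at *Nr3c1*, beside 0.618% of all sites. The *Fkbp5* locus held 36, 33 and 34 peaks in the GR-con libraries and 22, 21 and 25 in the GR-KO libraries, with no overlap between conditions. The difference of 11.67 peaks gave p = 0.1 in an exact two-sided permutation test, the smallest that 3 against 3 allows, and 0.571 after adjustment over the 8 genes. Peak numbers of the other 7 loci overlapped between conditions or touched (*Fkbp4* 21, 20 and 20 against 19, 19 and 20), and their exact p-values were 0.2 to 1.

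**Figure D2:**
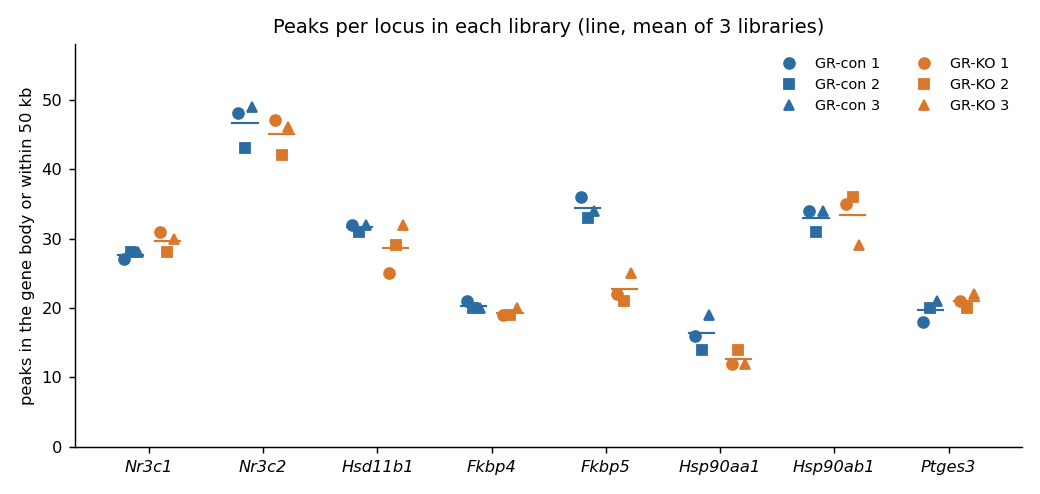
Number of peaks with a summit in the gene body or within 50 kb of it (vertical axis) for each of the 8 genes, with 1 point per library and a line at the mean of each condition. *Fkbp5* stands apart, with 33 to 36 peaks in GR-con and 21 to 25 in GR-KO.

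*Nr3c1*, the gene targeted by Cre, was examined first. It lies on the minus strand of chromosome 18 (mm10, 39410545 to 39519421) and had 23 sites. An intronic site at chr18:39428181-39428581, 91040 bp downstream of the gene's 5′ end and 233 bp from the nearest exon, lost most of its signal. Its fold was 17.4, 17.4 and 14.3 in the GR-con libraries and 6.68, 4.73 and 6.36 in the GR-KO libraries. The reads at the summit were 140, 151 and 130 against 36, 24 and 33, a level 4.45-fold higher in GR-con after depth scaling. Every GR-KO library lay below every GR-con library, yet all 6 retained a peak. Where the loxP sites lie is not given in the sources used here, so fewer reads from excised DNA and lower accessibility cannot be told apart at this site or at those beside it. The score fell, by rank of fold (-0.98 ± 0.10, SE, adjusted p = 0.0240, limma) and by rank of −log10 p (-0.96 ± 0.09, SE, adjusted p = 1.42e-05). The latter call held when any single library was left out (adjusted p 0.000264 to 0.0195), whereas the call on the rank of fold was lost each time (0.0671 to 0.205). Taking the strongest peak that covers the site, in place of one with its summit there, also ended the calls by rank of −log10 p at this site (0.179) and by either rank at the next.

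A second intronic site of *Nr3c1* moved the other way. At chr18:39460821-39461221, 58400 bp downstream of the 5′ end and 24977 bp from the nearest exon, no GR-con library had a summit or a peak spanning the site, and the GR-KO libraries had folds of 6.24, 4.76 and 6.39 on 39, 32 and 42 reads. The score rose by 1.65 ± 0.21 (SE, adjusted p = 0.0392) by rank of fold and by 1.56 ± 0.29 (SE, adjusted p = 0.00730) by rank of −log10 p. The site passed the filter through the GR-KO libraries alone, and the GR-con libraries shared the tied lowest score. These p-values are therefore not an independent test of the rise. Without GR-con 1, GR-con 2, GR-KO 1 or GR-KO 3 the latter was no longer called (adjusted p up to 0.0628), and the call by rank of fold was lost without each library in turn (0.124 to 0.205) and with summits within 100 bp (0.0731). The deposited lists do not show whether the floxed segment was excised in a nucleus.

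No other *Nr3c1* site was called. The cluster of 5 sites within 500 bp of the coding starts of *Nr3c1*, which lie inside the annotated gene body, had no call (smallest adjusted p 0.386 by rank of −log10 p). The strongest of them, 29438 bp downstream of the 5′ end, had 421, 410 and 369 reads in GR-con and 378, 399 and 338 in GR-KO, which overlap. The one 27790 bp downstream had 364, 351 and 393 against 290, 340 and 343 reads, without overlap (adjusted p = 0.713 and 0.386 by rank of fold and of −log10 p). A distal site 33934 bp upstream had 77, 64 and 55 against 66, 62 and 59 reads. The site 40375 bp upstream had a summit in 2 GR-con libraries (19 and 18 reads) and in all 3 GR-KO libraries (32, 26 and 26 reads), and was not called (adjusted p = 0.224). Close to the first called site, that 91637 bp downstream of the 5′ end had a summit in GR-con 1 and GR-con 2 (32 and 34 reads), and no GR-KO peak spanned it (adjusted p = 0.461 and 0.380 by rank of fold and of −log10 p). The site 29806 bp upstream had 23, 20 and 13 reads in GR-con and 24, 30 and 31 in GR-KO. After depth scaling its mean was 1.54-fold higher in GR-KO, but the conditions overlapped (5.36 in GR-con 1, 5.29 in GR-KO 1). The site missed the threshold by rank of fold and of −log10 p (adjusted p = 0.378 and 0.358).

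**Figure D3:**
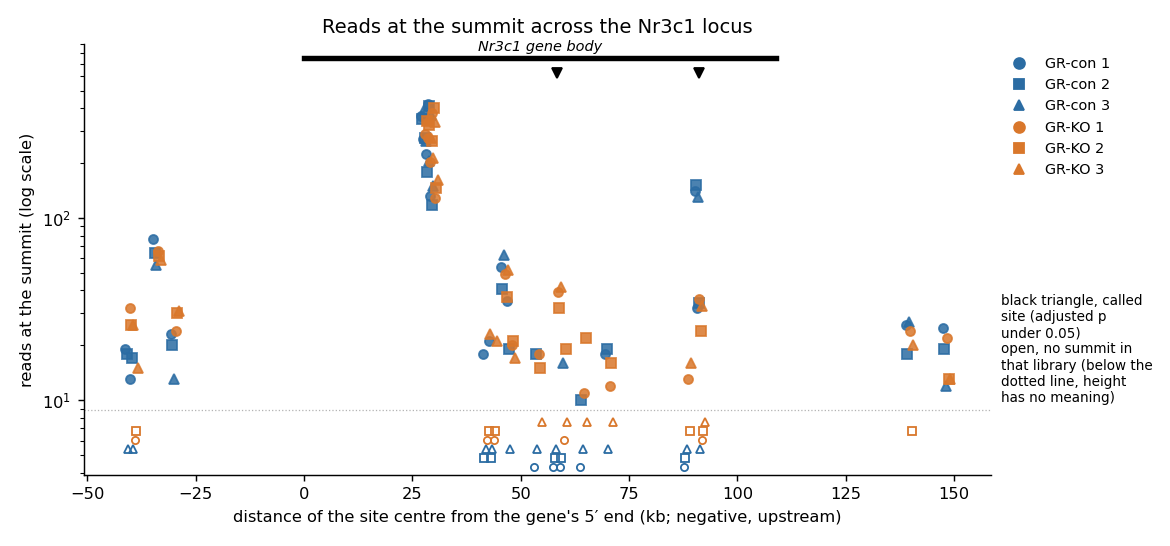
Reads at the summit (log axis) of the 23 *Nr3c1* sites against the distance of each site from the gene's 5′ end in kb, with 1 symbol per library; open symbols below the dotted line mark libraries without a summit, and black triangles mark the called sites. The 3 GR-con libraries stand at 130 to 151 reads and the 3 GR-KO libraries at 24 to 36 at the called site in the 3′ part of the gene. In the coding start cluster the conditions overlap at the strongest site and not at the site 27790 bp downstream of the 5′ end.

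*Nr3c2*, which encodes the other corticosteroid receptor and the receptor with the higher affinity for corticosterone, lies on chromosome 8 (76899442 to 77245012, plus strand) and had 36 sites. None was called by rank of fold (smallest adjusted p 0.0793) or of −log10 p (0.0786). At its start the site 2681 bp downstream of the 5′ end had 500, 559 and 531 reads in GR-con and 589, 575 and 546 in GR-KO. That 243 bp upstream had 160, 136 and 136 against 166, 143 and 117 reads. The site of highest fold, 337456 bp downstream, had 276, 233 and 240 against 257, 270 and 225 reads. Other intronic sites gave larger differences. The site 233704 bp downstream had 75, 63 and 83 reads in GR-con and 90, 98 and 105 in GR-KO, without overlap (adjusted p = 0.129 by rank of −log10 p). The site at chr8:77154501-77154901 had 40, 41 and 47 reads in GR-con and 18, 22 and 21 in GR-KO, without overlap. The site at chr8:77086721-77087121 had 25, 32 and 19 reads in GR-con and 48, 43 and 37 in GR-KO, also without overlap between conditions. By summit reads scaled to depth, an alternative chosen after the data were seen, the former fell (log2 difference -1.03 ± 0.26, SE, adjusted p = 0.00362) and the latter rose (0.81 ± 0.26, SE, adjusted p = 0.0343), beside 3.94% of 99772 sites called lower and 1.97% called higher on that scale. The remaining *Nr3c2* call on that scale was at the site 274469 bp downstream, with 72, 80 and 88 reads in GR-con and 154, 96 and 91 in GR-KO (0.51 ± 0.17, SE, adjusted p = 0.0451), where GR-KO 1 stands far above the others. A last intronic site, at chr8:77212960-77213360, had summits in the GR-con libraries alone, with folds of 5.71, 3.77 and 3.08 on 44, 27 and 26 reads, and missed the threshold (adjusted p = 0.0786 by rank of −log10 p).

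*Hsd11b1* lies on the minus strand of chromosome 1 (193221634 to 193264075) inside the gene body of *Lamb3*, a laminin subunit gene on the opposite strand, so position alone does not assign a site within it to either gene. It had 22 sites. The strongest site at a coding start of *Hsd11b1*, 21646 bp downstream of the 5′ end, had 173, 191 and 174 reads in GR-con and 214, 189 and 184 in GR-KO. The intronic site at chr1:193222907-193223307, which also overlaps the antisense gene 4930570N18Rik, had a summit in the GR-con libraries only. Its folds there were 3.96, 3.34 and 4.28 on 41, 36 and 52 reads, and no GR-KO peak spanned the site. The score fell by rank of −log10 p (-1.26 ± 0.30, SE, adjusted p = 0.0377), and its difference by rank of fold was -1.11 ± 0.23 (SE, adjusted p = 0.100). All GR-KO libraries shared the tied lowest score here, so these p-values are not an independent test. Leaving out any single library ended the call (adjusted p 0.0963 to 0.164). Near the 5′ end, where the rule for naming sites also looked, the site 849 bp downstream had 17, 16 and 18 reads in GR-con and 21, 17 and 40 in GR-KO, and the site 1484 bp downstream had 34, 23 and 17 reads in GR-con and a summit in GR-KO 3 alone, with 16. Neither was called. At the site of highest fold, near a start of *Lamb3* 55696 bp downstream, the reads were 125, 122 and 145 against 141, 128 and 112. A site at the start of A130010J15Rik, 90137 bp downstream, had a summit in GR-KO 2 and GR-KO 3 only (67 and 65 reads), although peaks of all 6 libraries spanned it (adjusted p = 0.278 by rank of −log10 p). The locus held 32, 31 and 32 peaks in GR-con and 25, 29 and 32 in GR-KO.

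*Fkbp5* showed the broadest change. The gene lies on the minus strand of chromosome 17 (28399094 to 28517527, 118.4 kb) and is annotated with coding starts at its 5′ end and again further down the gene body. A score below 0 by rank of −log10 p was found at 23 of its 26 sites (88.5%), against 48.8% of all sites. Of the 26 sites, 8 (30.8%) were called lower by this measure, beside 0.835% of all sites, and none was called higher. Among them, those at +97694, +97225, +53334 and +4656 bp (downstream of the 5′ end) had no summit in GR-KO 1 or GR-KO 2. Their calls rest partly on the tied lowest score given to those libraries, unlike the calls at sites with a summit in every library. Lowered sites lay upstream of the gene, at its 5′ end and in introns up to its 3′ part.

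Letters of a GR element, GNACANNNTGTNC, which reads the same on either strand, were searched within 100 bp of each site's centre. They occurred at 4 of the 174 member sites, all 4 at *Fkbp5*, beside 1020 of all 160877 sites (0.634%). The share was 15.4% of the *Fkbp5* sites and 17.2% of the 1344 sites called lower by rank of −log10 p over the whole series (231). The 4 windows of 201 bp are shown because 3 of them carry called sites, on the plus strand of mm10 with the match in capitals. Their coordinates are chr17:28420202-28420402, chr17:28442260-28442460, chr17:28518048-28518248 and chr17:28523099-28523299, in the order printed, and their names give the distance in bp from the 5′ end, upstream negative.
Fkbp5 +97225: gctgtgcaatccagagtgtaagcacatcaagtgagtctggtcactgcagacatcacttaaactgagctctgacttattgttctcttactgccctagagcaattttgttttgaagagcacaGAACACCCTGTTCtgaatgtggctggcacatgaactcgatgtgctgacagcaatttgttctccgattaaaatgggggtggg
Fkbp5 +75167: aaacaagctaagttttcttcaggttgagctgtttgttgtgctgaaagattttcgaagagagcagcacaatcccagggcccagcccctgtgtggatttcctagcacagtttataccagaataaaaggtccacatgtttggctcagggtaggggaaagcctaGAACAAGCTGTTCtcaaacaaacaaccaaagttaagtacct
Fkbp5 -621: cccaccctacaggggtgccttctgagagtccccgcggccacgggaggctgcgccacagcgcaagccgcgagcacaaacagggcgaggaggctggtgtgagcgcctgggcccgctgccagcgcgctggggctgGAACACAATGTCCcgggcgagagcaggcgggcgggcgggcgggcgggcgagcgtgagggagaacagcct
Fkbp5 -5672: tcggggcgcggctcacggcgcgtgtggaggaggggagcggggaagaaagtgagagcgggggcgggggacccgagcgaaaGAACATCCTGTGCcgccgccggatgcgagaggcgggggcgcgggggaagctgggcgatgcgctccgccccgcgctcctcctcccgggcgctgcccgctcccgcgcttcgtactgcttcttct
The match of the most 3′ window, GAACACCCTGTTC, lay 26 bp from the site's centre. The other matches were GAACAAGCTGTTC, GAACACAATGTCC and GAACATCCTGTGC.

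The site with the most 3′ match, in an intron 97225 bp downstream of the 5′ end, went from a strong peak to almost none. Its fold was 12.7, 16.0 and 11.1 in the GR-con libraries, on 149, 171 and 88 reads. Only GR-KO 3 had a summit there, with a fold of 2.81 on 14 reads, and no peak of GR-KO 1 or GR-KO 2 spanned it. The score fell by rank of fold (-2.04 ± 0.23, SE, adjusted p = 0.0282) and by rank of −log10 p (-2.06 ± 0.21, SE, adjusted p = 2.37e-05), and the latter call held without each library in turn (adjusted p up to 0.0331). The neighbouring site 97694 bp downstream of the 5′ end had 48, 56 and 25 reads in GR-con and no GR-KO summit (adjusted p = 0.0459 by rank of −log10 p, lost without any single library, up to 0.210). The window at +75167 bp was weak throughout, with a summit in GR-con 1 (27 reads) and GR-con 3 (17 reads) only, and was not called.

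Upstream of the gene, the site 5672 bp before the 5′ end lost most of its signal. It held 232, 242 and 168 reads in GR-con and 61, 51 and 44 in GR-KO, 4.07-fold more in GR-con after depth scaling. Its −log10 p was 141, 161 and 92.0 against 30.0, 23.2 and 20.1, and the score fell by 0.80 ± 0.09 (SE, adjusted p = 5.04e-05), a call that held without each library (up to 0.0295). The adjoining site 5164 bp upstream, with no GR match, had 251, 221 and 192 reads against 91, 70 and 63, and fell by 0.52 ± 0.08 (SE, adjusted p = 0.000809). By rank of fold the differences at these sites, -0.40 ± 0.09 and -0.04 ± 0.08 (SE), were not called (adjusted p = 0.133 and 0.887). These 2 sites also cover the starts of a divergent pair of long noncoding RNA genes, E230001N04Rik (start 29 bp from the second site's centre) and Gm20109 (51 bp from the first), so position alone does not assign the change to *Fkbp5*.

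At the 5′ end itself the 2 deposited measures parted. The site 621 bp upstream, with a GR match, had 268, 255 and 258 reads in GR-con and 141, 137 and 104 in GR-KO, 2.00-fold more in GR-con after depth scaling. Its score by rank of −log10 p fell by 0.31 ± 0.06 (SE, adjusted p = 0.0119). Yet its fold over local background was 11.2, 11.7 and 12.1 in GR-con and 15.0, 14.9 and 12.8 in GR-KO, a difference of 0.23 ± 0.07 (SE) in the opposite direction that was not called (adjusted p = 0.254). The fold is a ratio to the background around the peak, and at this site the reads and that background were both lower in GR-KO. The same held 10646 bp upstream, where folds of 14.4, 12.3 and 16.7 against 17.9, 18.9 and 19.6 stood beside 191, 152 and 207 against 127, 118 and 120 reads.

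Within the gene, 3 further intronic sites were called. The site 62234 bp downstream of the 5′ end, which overlaps the antisense gene AC154912.1, had folds of 15.1, 13.7 and 14.9 in GR-con and 6.14, 3.98 and 4.68 in GR-KO, on 79, 72 and 87 against 33, 20 and 24 reads. It fell by both measures (adjusted p = 0.0289 by rank of fold and 0.000777 by rank of −log10 p). The site 4656 bp downstream had 57, 80 and 50 reads in GR-con and no GR-KO summit, and was also called lower by both (adjusted p = 0.0352 and 0.00218). Its GR-KO libraries all shared the tied lowest score, so these p-values are not an independent test of the fall. The site 53334 bp downstream had 40, 38 and 31 reads in GR-con and a summit in GR-KO 3 alone, with 16 reads (adjusted p = 0.0412 by rank of −log10 p). Summits in the GR-con libraries alone were also found 105871 bp downstream (28, 39 and 30 reads) and 39287 bp upstream (15, 19 and 22 reads), and neither site was called (adjusted p = 0.0770 and 0.207 by rank of −log10 p). The windows of 2 called sites without a GR match are shown for comparison, the first from chr17:28455193-28455393 and the second from chr17:28522591-28522791, plus strand.
Fkbp5 +62234: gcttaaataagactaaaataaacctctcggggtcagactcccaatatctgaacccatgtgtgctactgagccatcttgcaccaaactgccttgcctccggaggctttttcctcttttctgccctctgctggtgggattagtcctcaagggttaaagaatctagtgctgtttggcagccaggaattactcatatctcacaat
Fkbp5 -5164: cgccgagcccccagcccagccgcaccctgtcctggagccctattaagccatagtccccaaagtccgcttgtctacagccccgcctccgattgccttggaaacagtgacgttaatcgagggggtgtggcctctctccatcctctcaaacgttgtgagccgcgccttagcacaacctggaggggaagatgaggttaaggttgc
Base composition differed widely among the windows, from 45.8% G and C at +97225 bp and 46.3% at +62234 bp to 73.6% at -621 bp and 74.1% at -5672 bp.

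Calls of these sites by rank of −log10 p differed in how much they owed to single libraries. Without GR-con 1 or GR-con 2, those at +4656, +62234 and -5164 bp were lost (adjusted p up to 0.0753, 0.0683 and 0.0650). The call at -621 bp was kept only without GR-KO 1 or GR-KO 2 (0.0339 to 0.136 over the 6 libraries), and that at +53334 bp only without GR-KO 3 (0.0318 to 0.242). Every difference kept its sign in all 6 cases. With the strongest covering peak, the calls at +62234, +53334, -621 and -5164 bp ended as well (adjusted p 0.0548 to 0.210), and without the variance trend so did the same 4 (0.0576 to 0.260). Those at +97225 and -5672 bp held under all alternatives run for each, 13 and 17 (up to 0.0331 and 0.0470). The site at +97225 bp lacked a summit in GR-KO 1 and GR-KO 2. It was therefore not tested on summit reads or among the sites with a summit in all 6 libraries. None of the 3 calls by rank of fold survived leaving out a library (adjusted p 0.0505 to 0.210).

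Of the 18 *Fkbp5* sites without a call by either rank, 15 also had a score below 0 by rank of −log10 p. The strongest site, 38 bp upstream of the second coding start (31340 bp downstream of the 5′ end), had 472, 481 and 451 reads in GR-con and 480, 468 and 411 in GR-KO. Its score difference by rank of −log10 p was 0.02 ± 0.08 (SE, adjusted p = 0.964). By rank of fold it was 0.54 ± 0.12 (SE, adjusted p = 0.128), with 23.7, 24.6 and 24.3 against 28.3, 28.1 and 27.8, which do not overlap. The site 131178 bp downstream, beyond the 3′ end of the gene, had 83, 85 and 113 against 83, 93 and 77 reads. Between these extremes, a strong intronic site 109937 bp downstream had 185, 266 and 207 reads in GR-con and 149, 132 and 153 in GR-KO, lower on the scaled reads (adjusted p = 0.00149) and not called by either rank. Summit reads could be compared at 14 *Fkbp5* sites with a peak in every library, and 7 of these were called lower and none higher on that scale, beside 3.94% lower and 1.97% higher over all sites. Of the 7, the sites at +109937, -10646 and +148878 bp were not called by either rank, the last with 181, 133 and 151 reads in GR-con and 107, 117 and 105 in GR-KO (adjusted p = 0.0358 on scaled reads). A weaker signal in every nucleus and its loss in a part of the nuclei cannot be told apart in these bulk lists.

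**Figure D4:**
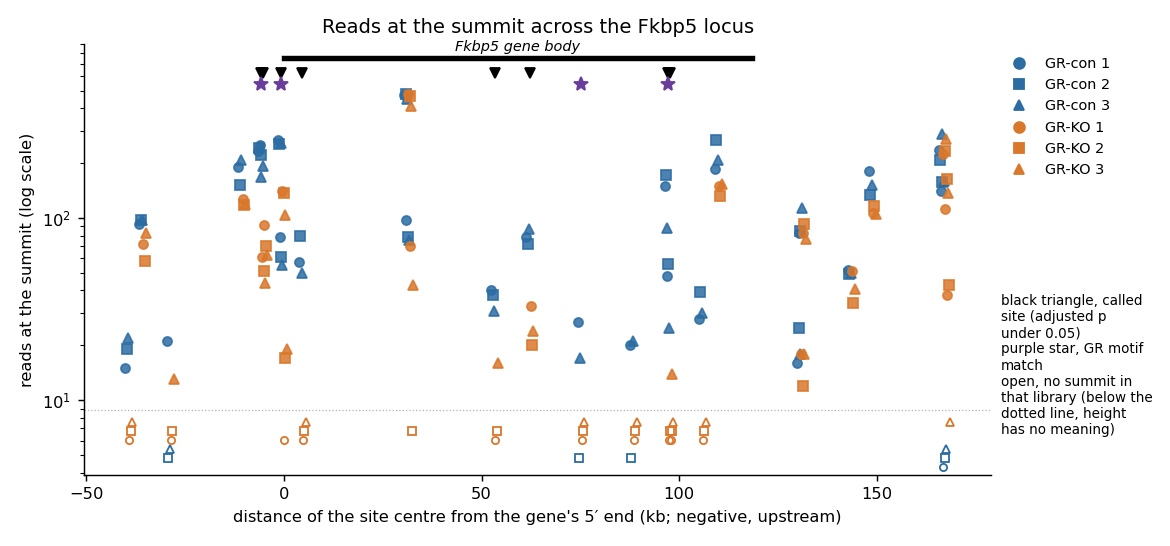
Reads at the summit (log axis) of the 26 *Fkbp5* sites against the distance of each site from the gene's 5′ end in kb, with 1 symbol per library; open symbols below the dotted line mark libraries without a summit, black triangles called sites and purple stars GR matches. GR-KO symbols lie below GR-con symbols from 10646 bp upstream to the 5′ end and at several intronic sites, and overlap at the second coding start (411 to 481 reads) and beyond the 3′ end.

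*Fkbp4*, whose product FKBP52 favours hormone binding and nuclear transport of GR, is the paralogue of *Fkbp5*, and the difference between the 2 loci was not tested. The gene lies on chromosome 6 (128429735 to 128438677, minus strand) and had 13 sites, none called (smallest adjusted p 0.152 by rank of fold and 0.243 by rank of −log10 p). Over all sites, 0.835% were called lower and 0.76% higher by rank of −log10 p, so few calls are to be looked for in 13 sites. By that measure 2 of the 13 had an unadjusted p under 0.05 in limma, beside 13.4% of all sites. Its promoter site, 35 bp upstream of the 5′ end, had 377, 387 and 407 reads in GR-con and 397, 404 and 366 in GR-KO. The strongest distal site, 41275 bp upstream, had 294, 279 and 295 against 295, 337 and 280 reads. Lower values without a call were seen at the site 57700 bp downstream of the 5′ end (57, 63 and 53 against 38, 39 and 36 reads, which do not overlap) and at that 30959 bp upstream, where GR-con libraries had 25, 24 and 26 reads and GR-KO 1 alone had a summit, with 19.

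The HSP90 genes and p23, the core of the folding machinery, showed no call in the main fits. *Hsp90aa1*, the stress-inducible cytosolic HSP90 gene (chromosome 12, 110690605 to 110702728, minus strand), had 11 sites, *Hsp90ab1*, the constitutive form (chromosome 17, 45567775 to 45573271, minus strand), had 25, and *Ptges3*, which encodes p23 (chromosome 10, 128058954 to 128077272, plus strand), had 18. The *Hsp90aa1* site 384 bp upstream of the 5′ end had 124, 86 and 97 reads in GR-con and 93, 91 and 97 in GR-KO, and the one 6267 bp downstream, at its main coding starts, had 522, 463 and 500 against 506, 479 and 435. At the *Hsp90ab1* promoter, 52 bp upstream, the reads were 371, 348 and 334 against 338, 350 and 343. The *Ptges3* promoter, 30 bp upstream, had 453, 457 and 462 against 427, 475 and 433. All 4 sets of values overlap between conditions.

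The strongest sites away from the 5′ end at these loci lay at the starts of neighbours. At *Wdr20*, 35203 bp upstream of *Hsp90aa1*, the reads were 503, 475 and 468 against 522, 467 and 522, and a neighbouring site 35967 bp upstream had 45, 52 and 69 reads in GR-con and a summit in GR-KO 2 alone, with 45 (adjusted p = 0.351 by rank of −log10 p). At *Slc35b2*, 9382 bp downstream of the *Hsp90ab1* 5′ end, they were 419, 422 and 369 against 396, 354 and 372. At *Prim1*, 43766 bp upstream of *Ptges3*, they were 156, 132 and 179 against 117, 127 and 144.

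Around these compact genes many sites belong to neighbours, with 10 of the 25 *Hsp90ab1* sites and 7 of the 18 *Ptges3* sites within 500 bp of a coding start of another gene. The site closest to a call was of that kind. At the start of *Naca*, a subunit of the nascent polypeptide-associated complex, 23368 bp upstream of *Ptges3*, the −log10 p was 386, 422 and 390 in GR-con and 338, 325 and 280 in GR-KO, without overlap, and the difference of -0.26 ± 0.07 (SE) missed the threshold (adjusted p = 0.0528). It was called in 3 of 17 alternatives by this measure (lowest adjusted p 0.0276 in limma). A pair of sites at *Slc29a1*, a nucleoside transporter gene upstream of *Hsp90ab1*, had 97, 107 and 122 against 74, 65 and 86 reads and 180, 155 and 170 against 144, 108 and 124, again without overlap and without a call (adjusted p = 0.340 and 0.329 by rank of −log10 p). Heat shock elements, 3 alternating GAA and TTC units set 2 bases apart (GAANNTTCNNGAA or its complement TTCNNGAANNTTC), were searched in the 250 bp before each RefSeq start (GRCm38.p6). They were found in none of the 5 members with an entry (*Nr3c2*, *Hsd11b1*, *Fkbp4*, *Fkbp5* and *Ptges3*), beside 153 of 32851 promoters (0.466%). The entries of *Nr3c2*, *Hsd11b1* and *Fkbp5* are for starts inside the annotated gene body, for *Fkbp5* the second coding start, so the 5′ ends of these 3 genes were not searched.

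**Figure D5:**
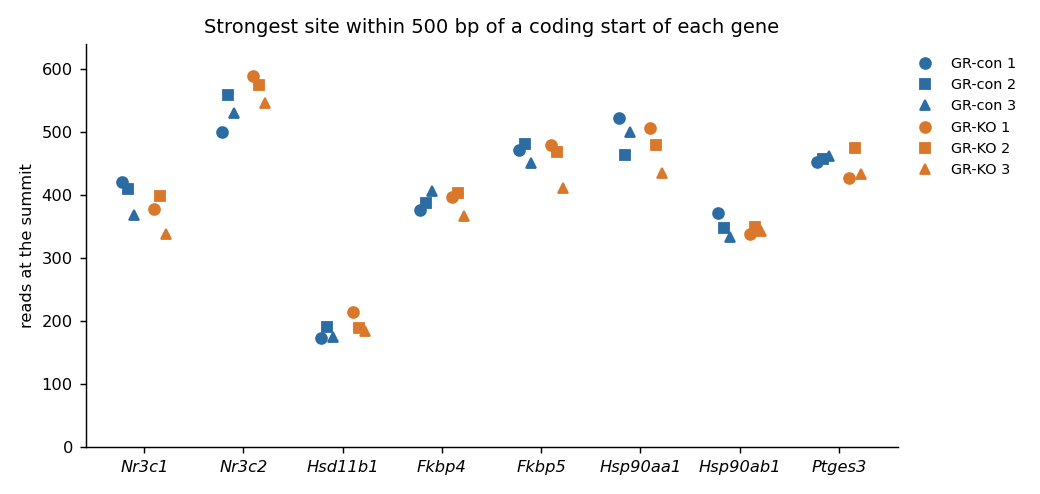
Reads at the summit (vertical axis, from 0) of the strongest site within 500 bp of a coding start of each of the 8 genes, with 1 symbol per library. The conditions overlap at all 8 genes (for *Fkbp5* the second coding start, not the called site 621 bp upstream of the 5′ end), with 500 to 589 reads at *Nr3c2* and 411 to 481 at *Fkbp5*.

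Start sites of all 8 genes were compared side by side. The strongest site within 500 bp of a coding start of each gene, a set chosen after the values were seen, had log2 differences in scaled reads of -0.07 to 0.16 for the 8 genes. For *Fkbp5* this is the second coding start, and the limit of 500 bp leaves out the called site 621 bp upstream of its 5′ end (log2 difference -1.01, adjusted p = 1.05e-11 on scaled reads). The smallest adjusted p over all such start sites of a gene was 0.128 by rank of fold and 0.138 by rank of −log10 p, both at *Fkbp5*.

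Further genes of the pathway were described in the same way, 20 genes with 426 sites. Those of steroid supply and transport (*Hsd11b2*, *H6pd*, *Serpina6* and *Abcb1a*, 58 sites) had no call (5, or 8.62%, at an unadjusted p under 0.05 by rank of −log10 p, beside 13.4% of all sites). Among 10 genes of HSP70 and HSP90 co-chaperones (177 sites), 3 sites (1.69%) fell by rank of −log10 p, beside 0.835% of all sites, all upstream of *Ppp5c*, a phosphatase that binds HSP90. These lie 86 to 1646 bp from coding starts of *Hif3a*, a hypoxia-inducible factor subunit, and 30401 to 34589 bp from *Ppp5c*. The outermost had 393, 387 and 381 reads in GR-con and 204, 196 and 166 in GR-KO (adjusted p = 0.0390). Its fold went the other way, with 5.42, 4.97 and 5.63 against 7.26, 6.50 and 5.96, which do not overlap, a difference of 0.22 ± 0.10 (SE) in rank that was not called (adjusted p = 0.425). At the site 30401 bp from *Ppp5c* the difference by rank of fold was 0.10 ± 0.09 (SE, adjusted p = 0.690). At the one between them, 33243 bp from *Ppp5c*, it was -0.82 ± 0.25 (SE, adjusted p = 0.237), with 257, 306 and 170 reads in GR-con and no GR-KO summit. Among 6 receptor co-regulators (191 sites), 1 site each fell at *Ncoa3* and *Ncor1* by rank of −log10 p (adjusted p = 0.0374 and 0.0423), in all 1.05% of the sites. No site of the 20 genes was called by rank of fold, where 41 (9.62%) had an unadjusted p under 0.05, beside 12.1% of all sites.

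As to the libraries, the lists held 179462 to 198929 peaks. The correlation of scores was 0.887 to 0.893 within and 0.863 to 0.871 across conditions over all sites. Starts of 8 of 8 astrocyte markers had a peak in every library, with a median percentile of 91.1 to 92.3 per list ranked by −log10 p. For the 7 neuronal markers the median over those with a peak was 24.6 to 46.5, and 5 had a peak in every library, of which *Gad2* was lower in GR-KO without overlap (percentiles 42.2, 32.3 and 46.3 against 30.8, 1.72 and 22.7). *Mog*, *Mag* and *Mobp* of 4 oligodendrocyte markers, *Cx3cr1*, *Csf1r* and *C1qa* of 5 microglial markers and *Pecam1* and *Tek* of 4 endothelial markers had no peak at a start in any library. Other markers of these cell types did have peaks in all 6, namely *Mbp* (percentiles 25.0 to 63.3), *P2ry12* (58.7 to 72.9), *Tmem119* (27.1, 40.3 and 55.7 in GR-con and 60.3, 54.8 and 65.0 in GR-KO) and *Flt1* (17.3 to 47.8). The median over markers with a peak was 43.5 to 63.1 in GR-con and 56.7 to 68.9 in GR-KO for microglia, and 17.3 to 35.5 and 21.2 to 47.8 for endothelium. *Cldn5* had a peak in GR-KO 1 and GR-KO 3 alone (0.969 and 27.7), and the neuronal *Slc17a7* in GR-con 3 (21.6) and all 3 GR-KO libraries (8.27 to 21.7). The part of other cell types in the results was not tested. Over all sites, 204 fell and 98 rose by rank of fold, and 1344 fell and 1223 rose by rank of −log10 p. For scaled reads this split depended on the scale, with 3928 lower and 1964 higher against the genome-wide background, 2634 and 2917 against the median local background, and 2620 and 4680 against the median over sites.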

How the data were processed

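The 6 libraries were grouped by the treatment in their labels. Reads had been run by the authors through ENCODE's pipeline for ATAC-seq (mm10 per the labels, peak threshold p = 0.01), which gave a peak list per library. Per peak, the deposited columns hold a score (not used), a fold, which is a ratio over local background, p and q as −log10, and the summit's offset. The members and lists were chosen with earlier results of these data known. No peak ended beyond its chromosome (0 of 1116429). Sites of 401 bp were placed around summits in order of rank without overlap, and kept with a summit in at least 2 libraries. A library's value was its strongest peak with a summit in the site, and a library without a summit was tied lowest. Scores were compared with limma 3.58.1 (R 4.3.3, variance trend, no block), tested on simulated data first. The simulated scores had normal noise, with spreads shuffled over sites, and no tied lowest values. They therefore did not test how the fit behaves at sites where libraries lack a summit. Peaks per locus were compared by exact permutation. Since labels do not state separate litters, p-values measure the spread between pools. Sites named were the strongest within 1 kb of the 5′ end and the one of highest rank of fold further away, all called sites, up to 3 of smallest unadjusted p under 0.05 per measure, those with summits in one condition only, and those with a GR match. Chosen after their values were seen were *Nr3c1* +91637, +29438, +27790, -29806 and -33934, *Nr3c2* +2681 and +274469, *Hsd11b1* +21646, *Fkbp5* +148878, +131178, +109937 and -10646 and *Hsp90aa1* +6267. Of the genes listed for the wider pathway and of the cell type markers, 1 each is not reported here and was left out of the counts. No total read count is given, so depth is known only through the background. The list of each library is from 1 pool, and its precision is limited by 3 pools per condition. Alternatives are listed with the limits. Sequences were read from GRCm38.p6 (RefSeq) with pysam 0.24.0 in Python 3.11.15.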

Additional observations from a re-analysis of the deposited data

How the results depend on the processing

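Counts are given as lower and higher in GR-KO. Member sites stood at 4 and 1 by rank of fold and at 10 and 1 by rank of −log10 p, and all sites at 204 and 98 and at 1344 and 1223. With the strongest peak covering over 200 bp of a site, members had 4 and 0 by either rank, and all sites 449 and 248 by fold and 500 and 284 by −log10 p. Summits within 100 bp gave 3 and 0 for members and 88 and 38 for all sites by fold, and 712 and 531 for all sites by −log10 p. Sites with a summit in all 6 libraries gave 2 and 0 for members by fold, and 169 higher by fold and 1835 by −log10 p over the 99772 such sites. Without the variance trend, members had 8 lower by fold, and all sites 1075 and 769 by fold and 807 higher by −log10 p. Summit reads gave, for members and for all sites, 8 and 3 and 2620 and 4680 (median-scaled), 8 and 2 and 2634 and 2917 (local background), and 9 and 2 and 3928 and 1964 (genome-wide background, chosen after seeing the data). On these scales the difference at *Fkbp5* -621 bp reversed from its sign by rank of fold, to -0.91, -0.94 and -1.01 on the log2 scale.

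Same-numbered libraries were not treated as paired in the main fit (correlations of deviations 0.030, -0.005 and 0.025). These correlations cannot show whether their pools were handled together, which the labels do not state. With a replicate block, members had 0 and 0 calls by rank of fold and 6 lower by −log10 p, and all sites 0 and 0 by fold and 702 and 506 by −log10 p; 25 member sites and 18364 of all sites had an unadjusted p under 0.05 by fold in limma, against 27 and 19527 without the block. Without 1 library, members had 0 to 0 lower and 0 to 0 higher by fold, and 3 to 7 and 0 to 1 by −log10 p. Unadjusted, 25 to 31 member sites had a p under 0.05 by fold. For all sites the ranges were 0 to 3 and 0 to 0 by fold, and 189 to 846 and 203 to 404 by −log10 p. The lowest by −log10 p came without GR-con 1. Over the named sites, 666 site differences kept their direction and their side of the threshold, 90 lost a call, 33 gained one and 3 reversed.

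Sites with summits in GR-con alone numbered 6, and 10 with covering peaks or with summits within 100 bp, 6 to 10 without 1 library (10 without GR-con 2 or GR-KO 3), and 0 where all 6 libraries needed a summit. Sites of GR-KO alone numbered 1, and 1 to 2 without 1 library and 0 under that last rule, which excludes them by construction. The difference in peaks per locus turned from -1.67 to 0.33 at *Nr3c2* with lists of equal length. At *Ptges3* it turned from 1.33 to -0.33 within 10 kb, and at *Hsp90ab1* from 0.33 to -0.67 at q of 0.01 or less, to -0.33 within 10 kb and -1 to 2.5 without 1 library. At *Fkbp5* it stayed between -12.8 and -10 under all alternatives. The smallest exact p of 0.1 was also reached at other loci under some alternatives. These were *Nr3c1* within 10 kb (means 18 in GR-con and 21.3 in GR-KO) and with lists of equal length, *Hsd11b1* within 10 kb (22.7 and 18.7) and in the gene body, and *Hsp90aa1* in the gene body (4 and 2.67). The cause of these changes, and of those in the counts above, was not tested.

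Summits carry few reads at weak sites (10 to 40), which limits what can be detected there, and 3 pools per condition limit every test.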
